A study of Mus musculus with 32 samples.

Results

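Consecutive cycles of Hes7 in a mouse segmentation clock time course named Ex5 were compared across all genes. The pair of cycles holds 14 of the 32 RNA-seq libraries of the series: 8 frozen at 165 to 270 min (the first window) and 6 frozen at 305 to 405 min (the second window). The windows were chosen by measured values, the rise and fall of the Hes7 transcript. Hes7 and its reporter are therefore described by their levels, without a test of each gene. The same holds for Lfng, Hes1, Hes5, Nrarp, Hey1, Dkk1 and Axin2, which are known to cycle with Hes7. Counts over gene lists still include such genes, and other genes that may cycle were not set apart. All dishes held presomitic mesoderm (PSM) made from mouse epiblast stem cells (EpiSCs) of one line, labelled AES0204 based Hes7-reporter, in which luciferase reports Hes7. All had the same treatment. The EpiSCs were cultured overnight with Y27632, Activin A and bFGF on fibronectin and then given CDMi, a defined medium, with bFGF at 20 ng/ml, both inhibitors SB431542 at 10 µM and LDN193189 at 250 nM, and CHIR99021 at 10 µM. At 30 hours the dose of CHIR99021 was dropped to 1 µM and the rest was kept. A separate course with the same labelled treatment, Ex4, gave 7 libraries at 155 to 245 min and 6 at 292 to 385 min for comparison. Each time has 1 dish and 1 library. The p-values therefore measure the spread between libraries frozen at different times within a window of a course, all of 1 reporter line. That spread holds clock phase and trend as well as differences between dishes. The second window is always the later one, and cycle number and time since the medium change cannot be told apart.

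The PSM is the tissue at the tail end of the embryo from which the somites bud. In its posterior part Wnt and FGF signals keep cells immature, and T, Tbx6 and Msgn1 encode transcription factors that define it. The segmentation clock is a negative feedback loop in which Notch signalling induces Hes7, whose protein represses its own gene. SB431542 and LDN193189 inhibit TGF-β and BMP receptors, and CHIR99021 inhibits GSK3, which activates Wnt signalling.

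In order of time, Hes7 stood at 150.4, 163, 201, 319, 349, 341, 373 and 228 CPM (a gene's counts scaled to library size) in the first window. It was 208 CPM at 285 min, in neither window, then 226, 186, 333, 345, 435 and 311 CPM in the second window and 239.7 CPM at 425 min. A common period of 135 min (95% interval 129 to 141 min) placed the Ex5 peaks at 237 and 372 min, inside the windows. Both windows hold low and high clock states, and their ranges largely overlap. The Hes7 median was 273 CPM in the first window and 322 CPM in the second, so the windows match in clock phase only roughly. Lfng, which encodes a glycosyltransferase that modifies Notch receptors, ranged over 44.4 to 142 CPM in the first window and 44.8 to 160.4 CPM in the second. The luciferase transcript ranged over 16.9 to 31.2 and 15.99 to 29.7 CPM. Hes1 and Hes5, repressors of the same family as Hes7, had medians of 15.7 and 21.1 CPM and of 23.2 and 26.2 CPM.

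**Figure D1:**
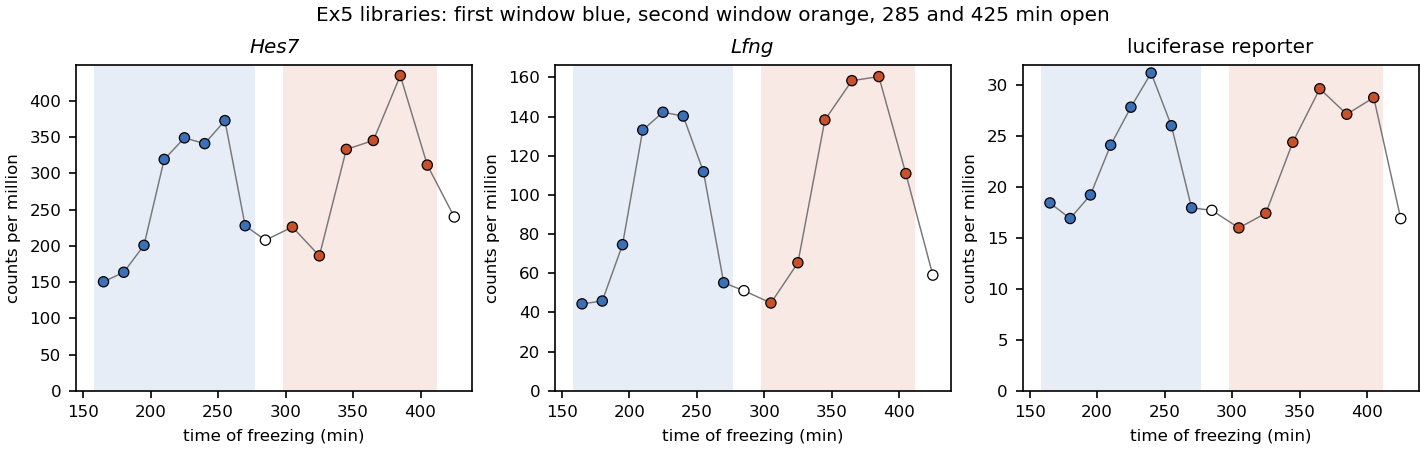
Hes7, Lfng and the luciferase reporter in CPM (y axis) against the time of freezing in min (x axis) for the 16 Ex5 libraries, 1 point per library, with the first window in blue, the second in orange and the libraries at 285 and 425 min open. Hes7 spans 150.4 to 373 CPM in the first window and 186 to 435 CPM in the second.

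Total counts were 18661970 to 28586704 per library in the first window and 16132024 to 25111524 in the second. PSM markers were all present (10 of 10 at 1 CPM or more), with a summed level of 3629.8 to 4321 CPM in the first window and 3768 to 4114 CPM in the second. Somite markers summed to 2.35 to 4.09 and 2.65 to 4.497 CPM, with Uncx, Mesp2 and Ripply2 under 1 CPM in every library and Tcf15 and Pax3 at medians under 1 CPM. Epiblast markers summed to 49.3 to 73.7 CPM and then 37.2 to 53.3 CPM, with 2 of 6 at 1 CPM or more. Neural markers summed to 42.9 to 59.1 and 53.6 to 76.2 CPM, endoderm markers to 13.5 to 16.6 and 10.7 to 14.2 CPM, and lateral, intermediate and vascular mesoderm markers to 6.07 to 11.5 and 4.81 to 6.77 CPM. In bulk libraries fewer cells of a type and less RNA per cell cannot be told apart, and the part these other cell types play in the results below was not tested.

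Many genes differed between the cycles, most of them by little. Of 11828 genes tested, 4104 (34.7%) passed the test (edgeR quasi-likelihood F test, Benjamini-Hochberg adjusted p under 0.05), 2003 (16.9%) higher and 2101 (17.8%) lower in the second window. The median change of those that passed was 1.16-fold, and 2535 of them changed by less than 1.2-fold. At 1.5-fold or more the falls outnumbered the rises: 378 genes passed (3.20%), of which 86 (0.727%) rose and 292 (2.47%) fell. At 2-fold or more, 6 rose and 67 fell. For 938 genes (7.93%) the test was passed and every library of one window lay above every library of the other.

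Genes that passed at a mean of 5 CPM or more without overlap of the windows were ranked, with predicted gene models left out. The largest rise among them was that of Sost, a secreted Wnt inhibitor (chr11:101962458-101967015, mm10). Its lowest, median and highest levels were 1.696, 3.95 and 6.69 CPM in the first window and 7.64, 10.2 and 12.6 CPM in the second, a log2 change of 1.36 ± 0.21 (SE), or 2.58-fold (adjusted p = 0.00011 by edgeR). Cstf3, a subunit of the mRNA cleavage stimulation factor (chr2:104590523-104665429), went from 28.7, 35.7 and 59.5 CPM to 69.1, 94.01 and 107 CPM (log2 1.21 ± 0.12, adjusted p = 6.1e-06 by edgeR). Both climbed through most of the course rather than stepping between the windows, and stood at 12.6 and 107 CPM at 425 min. Ism1, which encodes the secreted protein isthmin, was flat over the first window (11.00 to 13.8 CPM), then reached 16.8 to 27.5 CPM in the second (log2 0.91 ± 0.09) and was back at 18.7 CPM at 425 min.

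The other genes of this group rose by 0.71 to 0.88 on the log2 scale. Tenm4, a teneurin membrane protein, had medians of 46.8 and 91.6 CPM, and Ptprz1, a receptor tyrosine phosphatase, 18.2 and 37.5 CPM. Ddx58, the RNA sensor RIG-I, had medians of 11.7 and 20.2 CPM, and Smoc1, a secreted calcium-binding matrix protein, 95.05 and 159 CPM. None of these windows overlapped. Ppp1r1a, an inhibitor of protein phosphatase 1, had medians of 8.88 and 15.03 CPM and the LIM domain binding gene Ldb2 5.47 and 9.33 CPM. Cpne1 (48.5 and 84.2 CPM) shares exons with Rbm12 on the same strand, so its counts are uncertain.

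Slc46a3, a lysosomal membrane transporter (chr5:147878437-147894815), fell most in this group. Its lowest, median and highest levels were 9.52, 14.3 and 31.2 CPM in the first window and 5.04, 5.77 and 8.36 CPM in the second, a log2 change of -1.40 ± 0.24 (adjusted p = 0.00027 by edgeR). Its earliest library was its highest, and most of the fall lay inside the first window. Heyl, a repressor of the Hes and Hey family, had the same shape, from 13.03 CPM at 165 min to 3.996 CPM at 270 min and 2.897 to 3.71 CPM in the second window (log2 -1.01 ± 0.24).

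Dlgap3, a postsynaptic scaffold protein, went from a median of 17.4 to 6.64 CPM (log2 -1.27 ± 0.14) and Nefm, a neurofilament subunit, from 50.5 to 20.3 CPM (-1.16 ± 0.13). Hap1, the huntingtin-associated protein, went from 19.7 to 8.39 CPM, and Erc2, a presynaptic active zone protein, from 6.43 to 3.22 CPM. Nefm overlaps exons of Nefl on the opposite strand, and whether counting used strand is not given in the sources used here. Genes of epithelial cell contacts in this group were the cadherin Cdh3 (6.38 to 3.32 CPM) and the claudin Cldn6 (13.03 to 6.67 CPM). Dusp2, a phosphatase of MAP kinases, went from 16.5 to 8.33 CPM and Pid1, which encodes a phosphotyrosine interaction domain protein, from 29.8 to 13.8 CPM. These 8 genes had log2 changes from -1.27 to -1.002.

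**Figure D2:**
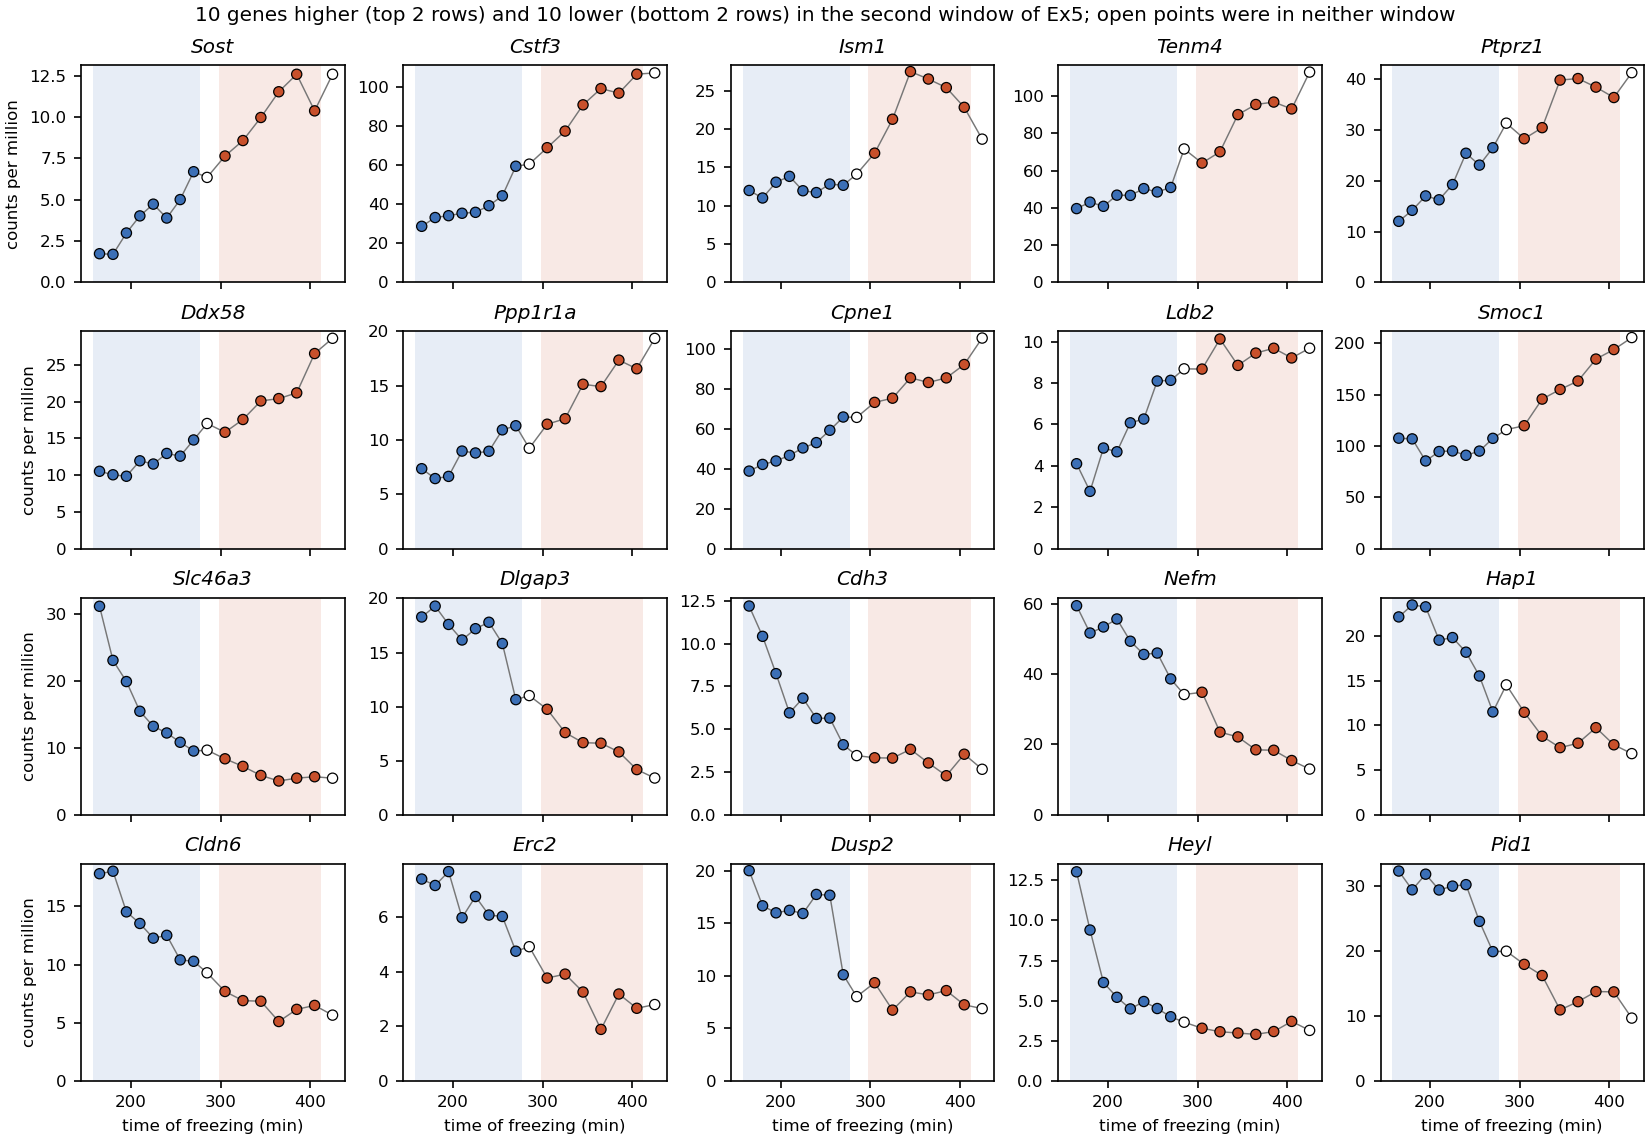
Levels in CPM (y axis) against time of freezing in min (x axis) for 10 genes that rose (top rows) and 10 that fell (bottom rows). They had the largest changes among genes that passed at a mean of 5 CPM or more without overlap of the windows, predicted gene models left out. Each point is 1 Ex5 library, first window blue, second window orange, libraries outside the windows open. Cstf3 runs on to 107 CPM at 425 min, while Ism1 turns down to 18.7 CPM.

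The libraries at 285 and 425 min entered neither window and gave a separate reading of the same genes. Of the 378 genes changed at least 1.5-fold, 325 had a level at 285 min between the window means, the median gene having gone 55.0% of the way. At 425 min, 355 lay on the side of the second window, 256 of them beyond its mean, with a median of 118% of the way. Over all 4104 genes that passed, the medians were 49.0% and 118%. The 2 outside libraries thus fell in order of time for most genes. A linear slope within the windows, fitted with cosine and sine terms at the Hes7 period, passed for 0 genes (0%) at an adjusted p under 0.05 by edgeR and for 1249 at an unadjusted p under 0.05. Without the cosine and sine terms 1542 genes passed, and with them 40 passed once the library at 405 min was left out, 27 without that at 305 min and 1 without that at 165 min. Each window is shorter than the Hes7 period of 135 min, so a slope and the cosine and sine terms are hard to tell apart. The count of 0 therefore does not show an absence of trend within the windows.

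Cdh1, Pou5f1 and some of the other pluripotency and epithelial genes fell. EpiSCs are an epithelium held together by E-cadherin, and cells that turn into mesoderm lose it. Of 22 genes of the pluripotency and epiblast list, 9 were expressed enough to test: 5 fell, 1 rose and 3 did not pass (66.7% passed, against 34.7% of all genes), with a median log2 change of -0.24 against -0.00084 over all genes tested. With no filter on low counts 8 fell. The gene lists here and below were chosen with earlier results of these data known, so their shares are a description. Cdh1, which encodes E-cadherin (chr8:106603351-106670246), had lowest, median and highest levels of 46.1, 67.2 and 78.2 CPM in the first window and 28.2, 32.3 and 43.9 CPM in the second (log2 -0.93 ± 0.12, adjusted p = 3.1e-05 by edgeR). Pou5f1, the pluripotency factor Oct4, went from 38.2, 52.7 and 56.5 CPM to 26.4, 28.9 and 39.5 CPM (log2 -0.69 ± 0.10), and only the edges of its windows overlapped. At 425 min they stood lower still, at 23.9 and 21.4 CPM.

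Epcam, an epithelial adhesion molecule, fell by 0.47 and Sall4, a transcription factor of early embryonic cells, by 0.28 on the log2 scale. Lin28a, an RNA-binding protein of early cells, went from a median of 1067 to 951 CPM (log2 -0.16 ± 0.04). Nanog, Otx2, Utf1 and Fgf5 were under 1 CPM. Of 18 tested genes of the cadherin switch list, 6 fell, 2 rose and 10 did not pass (44.4% passed, against 34.7% of all genes). With cosine and sine terms in the model 5 rose. Esrp1, a splicing factor of epithelial cells, fell (log2 -0.62 ± 0.14). Cdh2, N-cadherin, rose from 168, 185 and 198 CPM to 200.3, 204 and 214 CPM (log2 0.16 ± 0.03, adjusted p = 0.0011 by edgeR), without overlap. The epiblast marker sum given above is made up almost wholly of Pou5f1 and Sox2 and is no reading apart from Pou5f1.

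Most of the tested posterior PSM genes fell. Of 14 tested, 9 fell, 1 rose and 4 did not pass (71.4% passed, against 34.7% of all genes), with a median log2 change of -0.22. T, the Brachyury gene (chr17:8434423-8442496), had lowest, median and highest levels of 569, 613 and 654 CPM in the first window and 472, 498 and 565 CPM in the second (log2 -0.28 ± 0.04, adjusted p = 8.2e-05 by edgeR). Wnt3a, the Wnt ligand of the tailbud (chr11:59248033-59290752), went from 158, 189 and 219.5 CPM to 121, 127 and 147 CPM (log2 -0.56 ± 0.06, adjusted p = 9e-06 by edgeR). In neither gene did the windows overlap. Mixl1, a homeobox gene of the primitive streak, had medians of 62.04 and 38.1 CPM (log2 -0.69 ± 0.11), and Evx1, another homeobox gene of that region, 127 and 94.8 CPM (-0.38 ± 0.07). Msgn1, which encodes a bHLH factor of the posterior PSM, had overlapping ranges of 104 to 129.6 and 71.01 to 113 CPM (-0.32 ± 0.09).

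Tbx6, a T-box factor that directs cells to the paraxial mesoderm, went the other way. Its lowest, median and highest levels were 423, 547 and 611 CPM, then 575, 607 and 621 CPM (log2 0.22 ± 0.07, adjusted p = 0.019 by edgeR), with overlap. Of 8 tested genes of the anterior PSM and somite list, 2 rose and 3 fell (62.5% passed, against 34.7% of all genes). The other 12 were too low to test. Foxc2 and Foxc1, forkhead factors of paraxial mesoderm, rose by 0.95 ± 0.18 and 0.32 ± 0.08 on the log2 scale. Fst, the activin antagonist follistatin, had medians of 42.4 and 17.5 CPM (log2 -1.19 ± 0.23).

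Wnt genes split in direction. Of 24 tested, 5 rose, Sost among them, and 7 fell, Wnt3a among them (50% passed, against 34.7% of all genes). Notum, an enzyme that inactivates Wnt proteins, fell from 31.1, 51.4 and 71.4 CPM to 25.99, 27.8 and 30.1 CPM (log2 -0.84 ± 0.13, adjusted p = 0.00016 by edgeR), without overlap. Cdx1, a caudal homeobox gene activated by Wnt, had medians of 4.09 and 1.03 CPM (log2 -1.89 ± 0.26). Dkk1, a secreted Wnt inhibitor known to cycle in the PSM, ranged over 3.02 to 12.2 and 1.25 to 6.11 CPM, with overlap. Axin2, the standard Wnt feedback gene, had medians of 196 and 205 CPM.

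For FGF, 6 of 22 tested genes fell, 0 rose and 16 did not pass, and 11 fell with cosine and sine terms in the model. The share that passed, 27.3%, was below the 34.7% of all genes. The ligand gene Fgf8 had medians of 73.7 and 60.1 CPM (log2 -0.26 ± 0.06) and Fgf3 93.9 and 78.8 CPM (-0.23 ± 0.04), the latter without overlap. The feedback inhibitor gene Spry4 had medians of 284 and 223 CPM, and Phlda1, a gene induced by ERK, 28.4 and 24.2 CPM.

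Of 18 Notch pathway genes tested, 7 passed (38.9%, near the 34.7% of all genes), 5 higher and 2 lower in the second window, and 8 were higher with cosine and sine terms. The list holds genes known to cycle with Hes7, on which the windows were chosen, and Nrarp and Hey1 are among the 5 counted as higher. Their levels depend on how each window samples the cycle, so these counts are a description and no support for a change. The promoter search in Notch pathway genes below starts from the same 5 genes. Nrarp, a feedback inhibitor induced by Notch, ranged over 126 to 201 CPM around a median of 178 CPM and then over 166 to 313 CPM around 258 CPM. Notch1, the receptor, had medians of 230.4 and 337 CPM, the ligand gene Dll3 512 and 583 CPM and the repressor gene Hey1 11.3 and 15.4 CPM. In these 4 genes the windows overlapped. The ligand gene Jag1 fell from a median of 39.9 to 35.2 CPM (log2 -0.22 ± 0.06).

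Of the axial identity genes, 25 Hox genes were tested: 6 rose, 7 fell and 12 did not pass (52% passed, against 34.7% of all genes). Hoxd3 (log2 0.44 ± 0.10), which shares exons with Hoxd4, and Hoxa5 (-0.42 ± 0.09) mark the extremes. Of the 10 tested neural list genes 2 rose, 1 fell and 7 did not pass (30% passed), with a median log2 change of -0.20. Irx3 and Irx5, homeobox genes of that list, rose by 0.71 ± 0.17 and 1.10 ± 0.22 on the log2 scale, with medians of 23.7 and 35.7 CPM and of 1.11 and 2.43 CPM. Nes, which encodes the intermediate filament protein nestin and was its most abundant member, fell from a median of 469 to 402 CPM (log2 -0.24 ± 0.05, adjusted p = 0.0012 by edgeR). In the neural marker sum given above, most of the higher level came from Irx3, and Sox2 had medians of 14.03 and 10.97 CPM and Sox3 of 5.42 and 4.81 CPM. Pax2 and Lhx1, of the intermediate mesoderm, fell by 1.05 and 0.87, and Kdr, a VEGF receptor of vascular precursors, by 0.71, the last with medians of 1.31 and 0.907 CPM. The Kdr change did not pass (adjusted p = 0.079 by edgeR) when counts were thinned to the depth of the shallowest library.

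**Figure D3:**
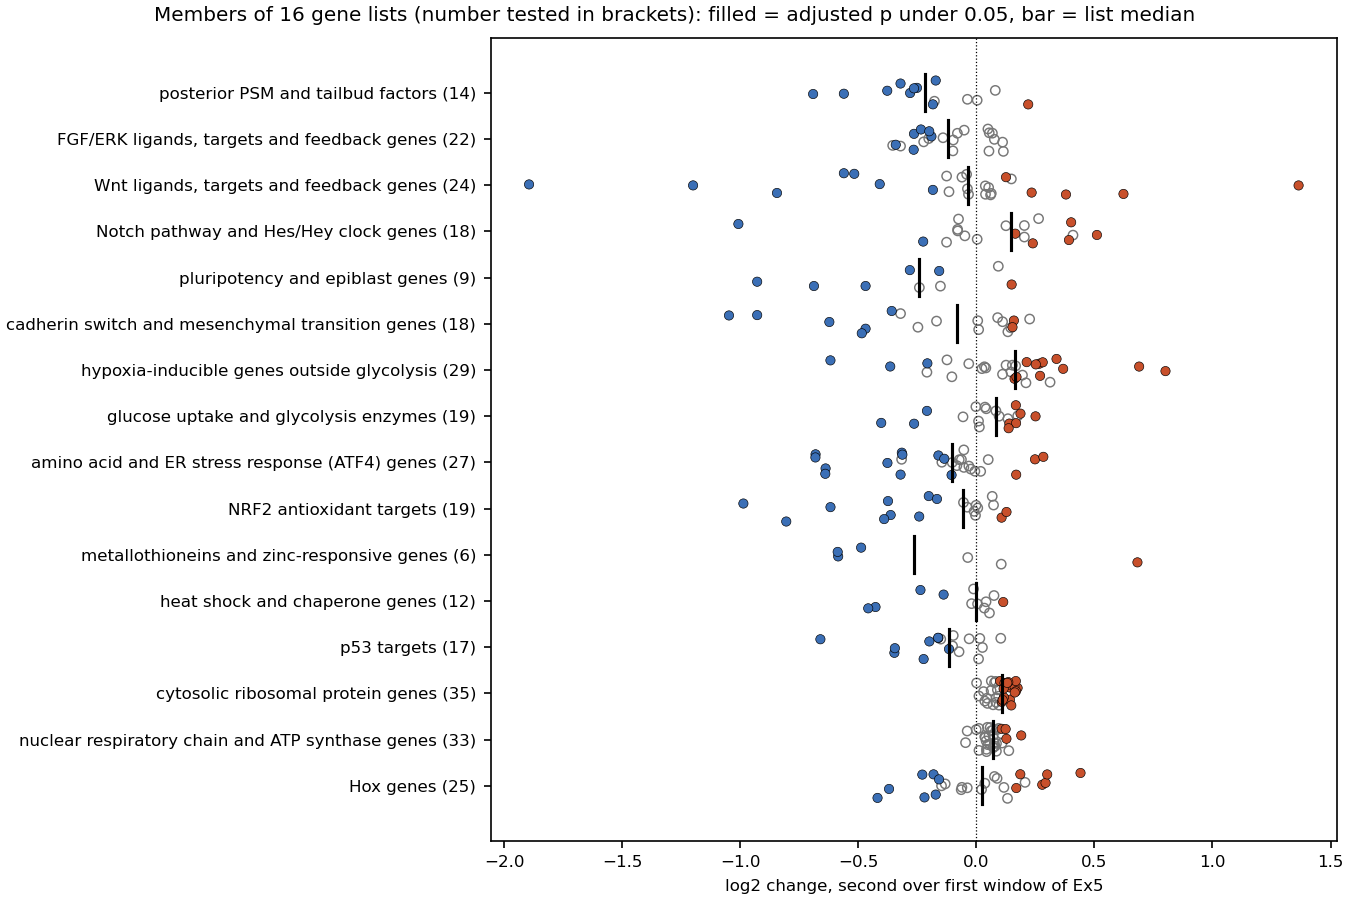
The log2 change between the windows of Ex5 (x axis) for each tested member of 16 gene lists (y axis, number tested in brackets), 1 point per gene, filled where the adjusted p was under 0.05 (orange higher, blue lower in the second window), with a bar at the list median. The median is -0.22 for posterior PSM genes and 0.16 for hypoxia-inducible genes.

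Hypoxia-inducible genes rose more often than they fell. HIF, the transcription factor stabilised at low oxygen, binds the core ACGTG. Of 29 tested genes outside glycolysis, 11 rose, 3 fell and 15 did not pass (48.3% passed, against 34.7% of all genes, of which 16.9% rose and 17.8% fell), with a median log2 change of 0.16. Without the library at 405 min 7 rose. Bnip3, a mitochondrial protein of mitophagy (chr7:138890836-138909519), went from 18.6, 27.4 and 44.8 CPM to 44.3, 51.05 and 62.3 CPM (log2 0.80 ± 0.16, adjusted p = 0.0011 by edgeR), and its windows overlapped only at their edges. Slc16a3, the lactate exporter MCT4, had medians of 83.8 and 132 CPM (0.69 ± 0.17), and P4ha2, a collagen prolyl hydroxylase subunit, 12.5 and 16.9 CPM (0.34 ± 0.11). Mxi1, a repressor that pairs with Max, rose without overlap, from 14.5 to 19.5 to 20.1 to 22.3 CPM. Ndrg1, also known as hypoxia-inducible, fell (log2 -0.62 ± 0.16).

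Glycolysis genes split: of 19 tested, 6 rose and 3 fell (47.4% passed, against 34.7% of all genes). Ldha, lactate dehydrogenase A, went from 1477, 1715 and 1832 CPM to 1808, 1952 and 1970.2 CPM (log2 0.19 ± 0.04, adjusted p = 0.0033 by edgeR). The triosephosphate isomerase gene Tpi1 (0.25 ± 0.05) and the pyruvate kinase gene Pkm (0.14 ± 0.04) rose too. The 3 that fell were the glucose transporter genes Slc2a3 (664, 805 and 928 CPM, then 586, 602 and 622 CPM, log2 -0.40 ± 0.06) and Slc2a1 (-0.26 ± 0.05), and Ldhb, lactate dehydrogenase B (-0.21 ± 0.04).

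Cytosolic ribosomal protein genes rose in 18 of 35 cases and fell in 0 (51.4% passed, against 34.7% of all genes), with a median log2 change of 0.11 and none beyond 0.17. Rpl23 had medians of 1123 and 1255 CPM. With the first window reduced to the 6 libraries nearest 1 Hes7 period before those of the second, 10 of the 35 rose, and 11 rose without the library at 325 min.

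Promoters of hypoxia-inducible genes that rose and of amino acid response genes that fell are shown because these lists moved in opposite directions and each has a known recognition sequence. The list called amino acid response here and below also holds genes of the endoplasmic reticulum (ER) stress response, Herpud1 among them. Each is the 250 bases before the gene's start in RefSeq on GRCm38.p6, written along the gene from 5′ to 3′ in lower case. Capitals mark ACGTG, searched on both strands, in Bnip3, Slc16a3 and P4ha2. The 2 matches in Bnip3 overlap on opposite strands and form the E box CACGTG.
Bnip3 (chr7:138909507-138909756, minus strand): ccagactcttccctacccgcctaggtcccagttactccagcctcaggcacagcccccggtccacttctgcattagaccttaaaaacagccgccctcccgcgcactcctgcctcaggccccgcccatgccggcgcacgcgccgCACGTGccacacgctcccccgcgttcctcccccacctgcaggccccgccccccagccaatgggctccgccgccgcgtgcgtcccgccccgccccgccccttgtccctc
Slc16a3 (chr11:120948817-120949066, plus strand): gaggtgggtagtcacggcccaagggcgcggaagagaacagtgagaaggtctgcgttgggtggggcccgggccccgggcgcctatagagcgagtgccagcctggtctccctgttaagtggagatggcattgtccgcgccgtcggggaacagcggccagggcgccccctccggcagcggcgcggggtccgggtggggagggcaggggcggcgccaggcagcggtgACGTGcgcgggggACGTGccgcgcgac
P4ha2 (chr11:54100674-54100923, plus strand): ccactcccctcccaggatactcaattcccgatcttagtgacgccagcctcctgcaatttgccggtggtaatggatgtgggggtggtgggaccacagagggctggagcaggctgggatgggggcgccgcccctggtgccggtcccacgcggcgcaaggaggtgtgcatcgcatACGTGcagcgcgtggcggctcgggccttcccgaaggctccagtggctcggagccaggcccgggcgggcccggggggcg
In the next sequences capitals mark TGATGNAA, the core of the element that ATF4 with C/EBP factors binds in amino acid response genes. It lies on the gene's own strand in Asns and on the other strand in Chac1 and Aars, where it reads as its reverse complement. Each motif was searched and capitalised only in its own list. ACGTG also occurs, in lower case, in the Aars promoter (as cacgtg) and on the other strand of the Asns promoter (as cacgt). The capitals therefore do not set genes that rose apart from genes that fell.
Asns (chr6:7693210-7693459, minus strand): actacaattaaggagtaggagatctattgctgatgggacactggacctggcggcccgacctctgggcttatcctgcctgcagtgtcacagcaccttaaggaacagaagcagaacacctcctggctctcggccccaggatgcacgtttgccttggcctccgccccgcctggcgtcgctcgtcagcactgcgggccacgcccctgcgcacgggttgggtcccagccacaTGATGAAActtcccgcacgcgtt
Chac1 (chr2:119350992-119351241, plus strand): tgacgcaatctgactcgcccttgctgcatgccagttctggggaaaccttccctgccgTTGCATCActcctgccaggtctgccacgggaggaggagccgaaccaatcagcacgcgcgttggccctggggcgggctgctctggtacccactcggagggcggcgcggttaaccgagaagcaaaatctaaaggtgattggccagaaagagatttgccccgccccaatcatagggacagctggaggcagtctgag
Aars (chr8:111033592-111033841, plus strand): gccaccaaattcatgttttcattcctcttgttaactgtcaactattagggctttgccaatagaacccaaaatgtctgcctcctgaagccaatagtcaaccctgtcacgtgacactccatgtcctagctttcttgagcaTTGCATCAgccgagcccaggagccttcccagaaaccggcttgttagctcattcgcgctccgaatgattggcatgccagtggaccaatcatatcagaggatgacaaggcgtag

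Matches were counted in the RefSeq table, which reaches from 250 bases before to 50 after each start. Of the 11 hypoxia-inducible genes that rose, 9 had an entry and 7 of these held ACGTG, against 29.7% of 9367 tested genes with an entry and 19.6% of all 32851 promoters. Of the 11 amino acid response genes that fell, 8 had an entry and 6 held TGATGNAA, against 2.50% of tested genes and 3.97% of promoters. TGACNNNGC, the core of the antioxidant response element, was in 4 of 7 entries of NRF2 targets that fell (17 and 12.4%), and TGCNCNC, the core of the metal response element, was in 3 of 3 metallothionein and zinc genes that fell (65.2 and 51%). TGGGAA, searched in Notch pathway genes that rose, was in 1 of 4 entries (26.5 and 25.6%). The hypoxia, amino acid, NRF2 and zinc lists hold genes known to respond to the factors that bind these sequences. More matches than over all genes therefore say nothing about the change between windows. List members that did not pass or moved the other way were not searched. A match of letters is a description and does not show binding.

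Amino acid response genes fell more often than they rose. ATF4 is a transcription factor that raises amino acid import, asparagine synthesis and tRNA charging when amino acids run short. Of 27 tested genes of the list, which covers amino acid and ER stress responses, 11 fell, 3 rose and 13 did not pass. The share that passed was 51.9%, against 34.7% of all genes, and the median log2 change was -0.10. Slc7a1, an importer of arginine and lysine, went from 41.8, 59.3 and 86.7 CPM to 34.7, 39.5 and 41.4 CPM (log2 -0.68 ± 0.12, adjusted p = 0.00049 by edgeR). Slc7a5, the importer of large neutral amino acids (chr8:121881150-121907694), went from 165, 192 and 216 CPM to 141, 144 and 158 CPM (-0.38 ± 0.05, adjusted p = 4.6e-05 by edgeR). Every first-window library was above every second-window library in both.

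Asns, asparagine synthetase, had medians of 142 and 116 CPM (-0.32 ± 0.05), and the alanyl-tRNA synthetase gene Aars, which shares exons with Exosc6, 326 and 256 CPM (-0.31 ± 0.05). Trib3, a pseudokinase induced by ATF4, had medians of 2.07 and 1.38 CPM (-0.68 ± 0.15) and Chac1, a glutathione-degrading enzyme, 2.55 and 1.79 CPM (-0.64 ± 0.15). The windows did not overlap in these 4. The importer gene Slc7a3 fell as well (-0.64 ± 0.12).

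Some antioxidant, zinc and chaperone genes fell as well. Of 19 tested targets of NRF2, the regulator of antioxidant genes, 9 fell, 2 rose and 8 did not pass (57.9% passed, against 34.7% of all genes), with a median log2 change of -0.05. Srxn1, sulfiredoxin, went from 9.27, 12.6 and 20.6 CPM to 5.92, 6.64 and 8.72 CPM (log2 -0.99 ± 0.17, adjusted p = 0.00025 by edgeR), without overlap. Slc7a11, the cystine importer (-0.80 ± 0.19), and Nqo1, a quinone reductase (-0.62 ± 0.14), fell at low levels. Gclm and Gclc, the subunits of the enzyme that starts glutathione synthesis (-0.39 ± 0.07 and -0.37 ± 0.08), and Txnrd1, thioredoxin reductase (-0.20 ± 0.03), fell by less.

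Of 6 metallothionein and zinc genes tested, 3 fell, 1 rose and 2 did not pass (66.7% passed, against 34.7% of all genes). Mt1, a metallothionein that binds zinc, went from 115, 133 and 183 CPM to 73.1, 97.6 and 123 CPM (log2 -0.49 ± 0.11), and Mt2 changed by -0.59 ± 0.11. The zinc exporter gene Slc30a1 fell (-0.59 ± 0.19, adjusted p = 0.021 by edgeR, but 0.051 by limma-voom), and the zinc importer gene Slc39a10 rose from a median of 112 to 177 CPM (0.68 ± 0.14). Of 12 heat shock and chaperone genes, 4 fell, 1 rose and 7 did not pass (41.7% passed), with a median log2 change of -0.0032. Hspa8, the constitutive Hsp70, went from 2649, 2937 and 3136 CPM to 1815, 2086 and 2581 CPM (-0.43 ± 0.06), and the chaperone gene Hsph1 from a median of 312 to 221 CPM (-0.46 ± 0.05). In neither of these did the windows overlap.

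Of 17 p53 targets tested, 8 fell, 0 rose and 9 did not pass (47.1% passed, against 34.7% of all genes). Perp, a membrane protein of apoptosis and adhesion, fell by 0.66, Trp53inp1 by 0.35 and the kinase gene Plk2 by 0.34 on the log2 scale. Ccng1, cyclin G1, fell by 0.12, with an adjusted p of 0.052 by edgeR without the library at 365 min.

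Genes of the cell cycle and of the matrix were next. Cdkn1b, the CDK inhibitor p27, rose without overlap from 15.3, 17.2 and 18.5 CPM to 20.6, 22.8 and 26.6 CPM (log2 0.42 ± 0.06), and the cyclin D gene Ccnd2 had medians of 504 and 401 CPM (-0.30 ± 0.06). Of 22 G1/S and replication genes 1 rose and 6 fell, cyclin E2 (Ccne2, -0.22 ± 0.07) by the most, and of 20 mitosis genes 4 rose and 1 fell, with no log2 change in either list beyond 0.22 in size. The shares that passed, 31.8% and 25%, were below the 34.7% of all genes. Ccne2 did not pass without the library at 325 min or that at 405 min (adjusted p up to 0.065 by edgeR). Of 33 matrix and integrin genes, 5 rose and 7 fell, or 3 and 3 without the library at 345 min, and the 36.4% that passed was near the share of all genes. Lama1, a laminin chain of basement membranes, rose from 80.04, 109 and 122 CPM to 126, 176 and 194 CPM (0.65 ± 0.09), and Itga3, an integrin that binds laminins, had medians of 3.48 and 1.75 CPM (-1.02 ± 0.17).

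Cholesterol and fatty acid synthesis genes split into 6 that rose and 7 that fell of 29 (44.8% passed), from -0.19 for the sterol sensor partner Insig1 to 0.19 for mevalonate kinase (Mvk). Of 13 retinoic acid genes 2 rose and 6 fell (61.5% passed, against 34.7% of all genes). Without the library at 385 min or that at 405 min 2 fell. Both the enzyme that makes retinoic acid in the trunk, Aldh1a2 (-0.30 ± 0.06), and one that breaks it down in the tailbud, Cyp26a1 (-0.25 ± 0.07), fell. Of 8 mitochondrially encoded genes 0 rose and 0 fell, and of 33 nuclear respiratory genes 4 rose and 0 fell, with 8 that rose by DESeq2. The 12.1% of respiratory genes that passed, all higher, was below both the 34.7% of all genes that passed and the 16.9% that rose. Dnmt3a, a de novo DNA methyltransferase, rose without overlap (0.18 ± 0.03), the one of 8 DNA methylation genes that passed (12.5%). Of 14 immediate early genes Fos alone passed (7.14% of the list, log2 -0.66 ± 0.20). It did not pass with the first window reduced to 6 libraries (adjusted p = 0.053 by edgeR).

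Ex4 was used to ask which of these changes the other course shared. There 3842 of 11835 genes (32.5%) passed the same test, 1877 (15.9%) higher and 1965 (16.6%) lower in its second window. The same gene passed in the same direction in both courses in 1858 cases, 45.3% of the Ex5 genes and 48.4% of the Ex4 genes, and in opposite directions in 81. Of the 378 genes changed at least 1.5-fold in Ex5, 339 could be tested in Ex4: 326 had the same sign, 222 passed in the same direction and 0 passed in the other. Over all 11692 genes tested in both, 71.3% had the same sign.

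The change itself differed between Ex5 and Ex4 for 907 of 12045 genes (7.53%, edgeR test of the interaction), being higher in Ex5 for 365 (3.03%) and lower for 542 (4.50%). Of the posterior PSM genes 6 of 14 differed and of the amino acid response genes 9 of 27, all with a lower change in Ex5. T had medians of 651 and 659 CPM in the windows of Ex4, where it did not pass, and the difference was -0.28 (adjusted p = 0.0012 by edgeR). Wnt3a fell in Ex4 too, with medians of 214 and 191 CPM, and by more in Ex5 (difference -0.37, adjusted p = 0.0018 by edgeR). Mixl1 and Notum differed by -0.58 and -0.74. The differences of Evx1 and Msgn1, -0.29 and -0.42, did not pass in some fits that left out 1 library (adjusted p up to 0.057 and 0.052 by edgeR), among them those without the Ex5 library at 385 min.

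Of the 26 amino acid response genes tested in Ex4, 4 rose and 4 fell there. This was near the share of all genes that passed in Ex4 (32.5%, with 15.9% higher and 16.6% lower). Slc7a5 ran over 133 to 144 CPM in the first window of Ex4 and 135 to 148 CPM in the second, beside 141 to 158 CPM in the second window of Ex5 (difference of the changes -0.42, adjusted p = 0.00013 by edgeR). Cars, cysteinyl-tRNA synthetase (chr7:143557230-143600090), fell in Ex5 from 111, 129.7 and 139 CPM to 89.5, 93.8 and 98.6 CPM and had medians of 96.5 and 98.6 CPM in Ex4 (difference -0.45, adjusted p = 2.7e-06 by edgeR). Slc7a1 (-0.61), Trib3 (-0.85) and Aars (-0.31) differed likewise. Asns, at -0.21, did not pass in 14 of the fits that left out 1 library (adjusted p up to 0.072 by edgeR). What set the Ex4 and Ex5 cultures apart was not tested.

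**Figure D4:**
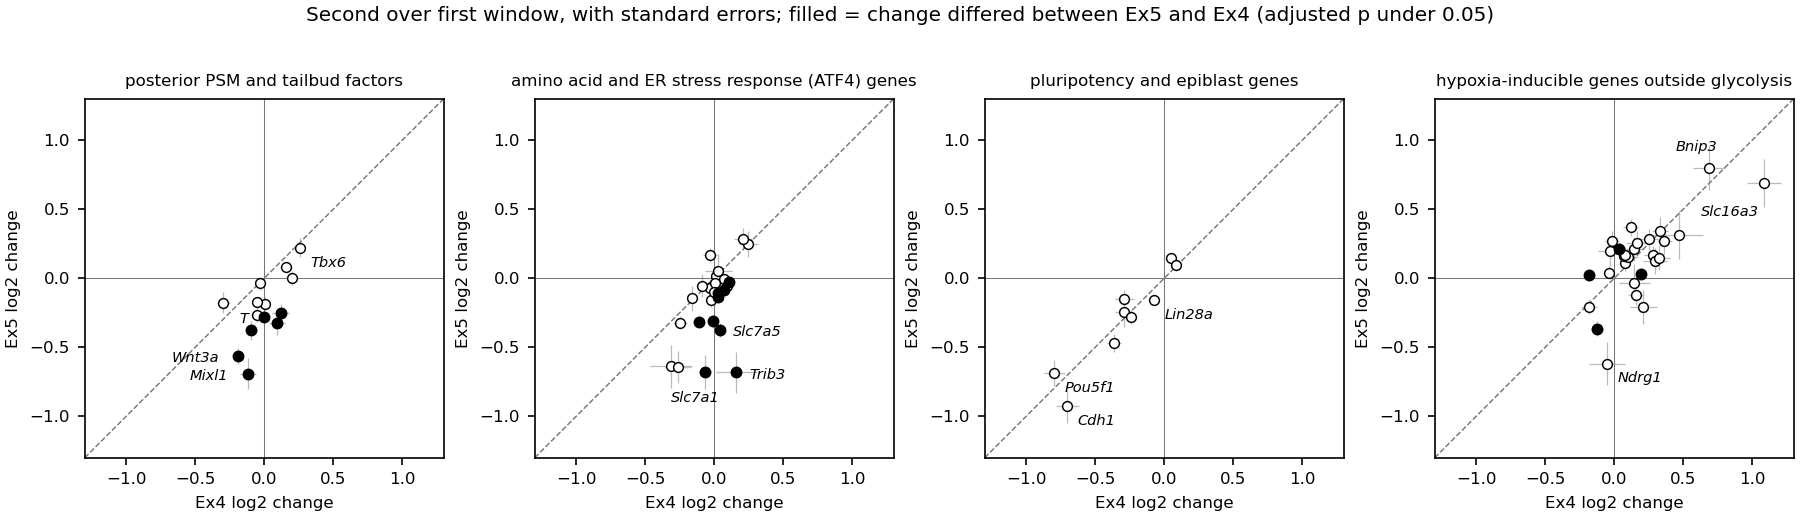
The log2 change between the windows in Ex5 (y axis) against that in Ex4 (x axis) for the tested members of 4 gene lists, with standard errors as bars, the line of equality dashed, and filled points where the change differed between the courses at an adjusted p under 0.05. Cdh1 (-0.93 in Ex5, -0.70 in Ex4) and Pou5f1 (-0.69, -0.79) lie near the line, and Trib3 (-0.68, 0.16) and Wnt3a (-0.56, -0.19) below it.

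Other genes were named by the p-value of the difference. Rai14, which encodes an actin-associated protein, fell in Ex5 from 150.1 to 167 CPM to 122 to 132 CPM and had medians of 146 and 154 CPM in Ex4 (difference -0.42, adjusted p = 2.7e-06 by edgeR). Pald1, the paladin gene, differed by -0.49 and Aldh18a1, an enzyme of proline synthesis, by -0.41. Sall1, a zinc finger factor of kidney and limb, had medians of 206 and 265 CPM in Ex4, where it rose, and of 273 and 285 CPM in Ex5, where it did not pass (difference -0.30).

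Genes whose change was higher in Ex5 were Chchd2, a mitochondrial protein gene (0.40), Tmsb4x, thymosin beta 4 (0.36), the small GTPase gene Rab15 (0.45), the glycerol kinase gene Gk (0.43) and the RNA-binding protein gene Hnrnpdl (0.31). Chchd2 had medians of 153 and 181 CPM in Ex5 and of 179 and 163 CPM in Ex4 and passed in opposite directions. Of the genes described above, Cpne1 (0.43) and Cdkn1b (0.34) had a higher change in Ex5, and Dlgap3 (-0.85) and Nefm (-0.63) a lower one.

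The falls of Cdh1 and Pou5f1 and the rise of Bnip3 were seen in both courses. Cdh1 had medians of 91.5 and 51.3 CPM in the windows of Ex4 (log2 -0.70) and Pou5f1 72.2 and 38.6 CPM (-0.79), with differences to Ex5 of -0.23 (adjusted p = 0.42 by edgeR) and 0.11 (0.69), which did not pass. Bnip3 rose by 0.68 on the log2 scale in Ex4 and by 0.80 in Ex5, at lower levels in Ex4, with medians of 13.4 and 23.5 CPM. Mt1 fell in both (log2 -0.69 in Ex4), from a median of 15.4 CPM in Ex4 and 133 CPM in Ex5. Tbx6 rose in Ex4 too, by 0.26 on the log2 scale.

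**Figure D5:**
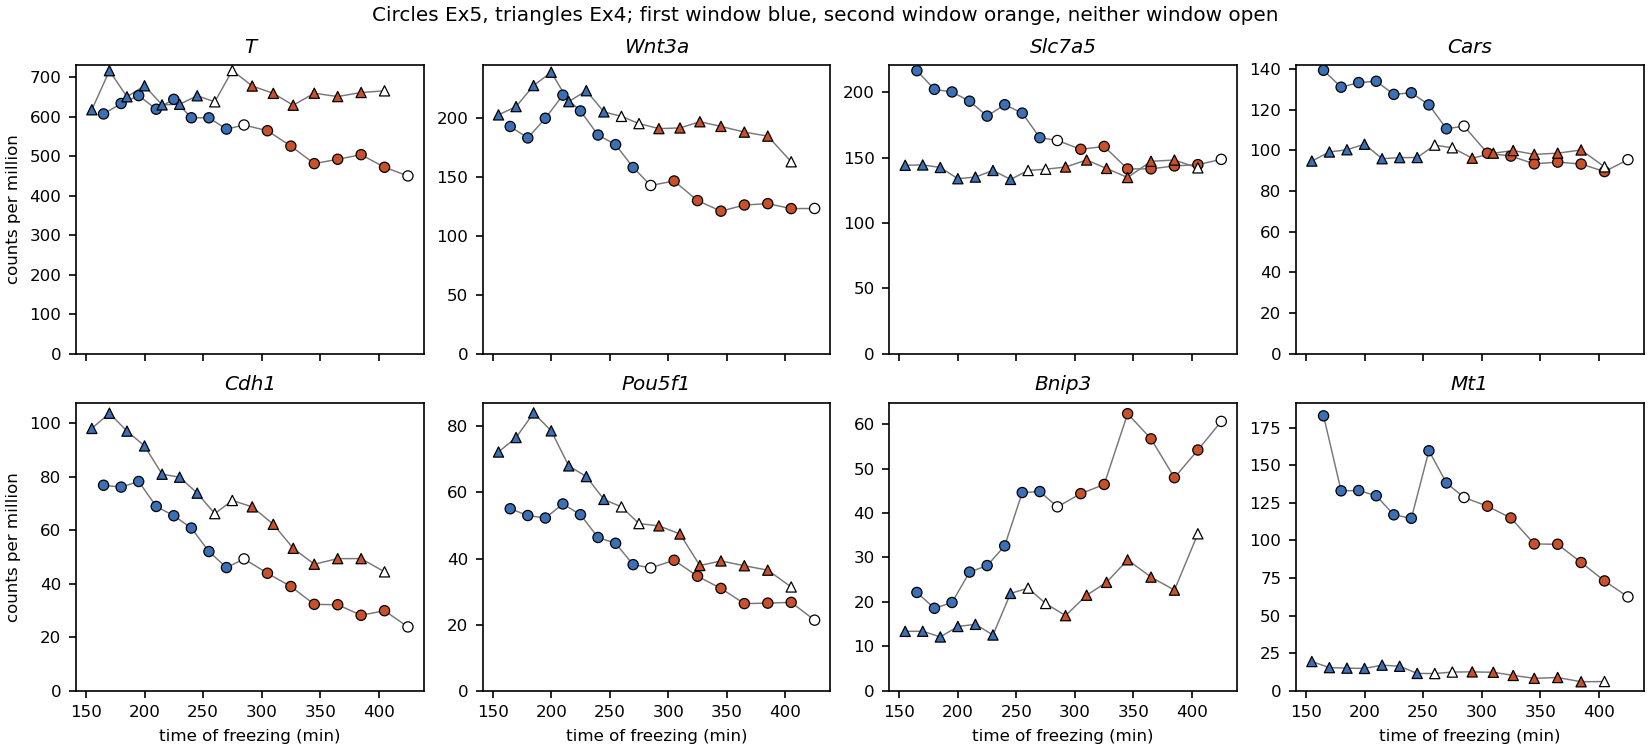
Levels in CPM (y axis) against time of freezing in min (x axis) for 8 genes, circles for the 16 Ex5 and triangles for the 16 Ex4 libraries, first windows blue, second windows orange, other libraries open. Cars in Ex5 comes down to the Ex4 level (93.8 and 98.6 CPM by second-window medians), and Mt1 differs in level throughout (133 and 15.4 CPM by first-window medians).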

How the data were processed

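Stranded mRNA libraries (TruSeq, 200 ng total RNA) were made from 32 dishes, per the labels' protocols. The authors deposited whole-number counts per gene, not normalized, for 21886 genes. The build was mm10, listed with HISAT2 2.1.0 and HTSeq 0.6.1, after bcl2fastq 2.17.1.14 and cutadapt 1.14, as far as the submitters' processing notes name tools. Which annotation was counted, and whether strand was used, is not stated there.

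Groups followed the labelled course and time. The test took genes reaching 1 CPM in 6 or more libraries and used edgeR 4.0.16 in R 4.3.3 (TMM scaling, quasi-likelihood F test, Benjamini-Hochberg at 0.05). Levels are CPM scaled by TMM over all 32 libraries. DESeq2 1.42.0 and limma 3.58.1 (voom) were alternatives, and the script was tested on simulated data. The Hes7 period was fitted to all 32 libraries. Gene positions are those of GENCODE M21 on GRCm38.

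Named genes were the 10 rising and 10 falling most at 5 CPM or more without overlap of the windows, up to 4 that passed and the most abundant of each gene list, the 5 in each direction with the smallest p for the difference between courses, and clock readouts. Predicted gene models were left out of the 10 rising and 10 falling and of the 5 in each direction. T, Tbx6, Slc7a5, Asns, Aars, P4ha2, Ldha, Cdh2, Jag1, Dll3, Gclc and Txnrd1 were chosen after their values were seen. The windows and lists were chosen with earlier results of these data known.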

Additional observations from a re-analysis of the deposited data

Results flagged for a closer look

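In 6 of 238 windows of the named genes (2.521%) 1 library stood far from the rest by Dixon's criterion, where chance gives about 1 in 20. The library at 270 min held 4 of these. There Dlgap3 was lowest of the first window at 10.64 CPM (the next was 15.84 CPM), Dusp2 was lowest at 10.1 CPM (15.94 CPM), Txnrd1 was lowest at 584.6 CPM (621.6 CPM) and Npm1 was highest at 4123 CPM (3734 CPM). In the second window Wnt3a was highest at 305 min with 146.6 CPM (129.9 CPM), and Ndrg1 at 365 min with 5.037 CPM (3.417 CPM).

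The change between windows differed between Ex5 and Ex4 by edgeR's test of the interaction for 39 named genes, given here as the Ex5 minus the Ex4 log2 change. Genes of the posterior PSM and of signalling had a lower change in Ex5, with T -0.2849, Wnt3a -0.3728, Mixl1 -0.5783, Evx1 -0.2872, Msgn1 -0.4158, Phlda1 -0.4001, Notum -0.7411 and Jag1 -0.3691. Genes of amino acid uptake, synthesis and tRNA charging were lower, with Cars -0.4508, Aldh18a1 -0.4092, Slc7a1 -0.6145, Slc7a5 -0.4228, Trib3 -0.8461, Asns -0.2065 and Aars -0.3062. Genes with large falls in Ex5 were Dlgap3 -0.8481, Nefm -0.63, Cldn6 -0.6628, Erc2 -0.6053 and Pid1 -0.4716. The others with a lower change in Ex5 were Rai14 -0.4226, Pald1 -0.4854, Sall1 -0.2985, Slc2a3 -0.2755, Hspa8 -0.3057, Hsph1 -0.226, Ccnd2 -0.2932, Itga3 -0.5669, Pax2 -0.7732, Kdr -0.9076, Insig1 -0.2252 and Cyp26a1 -0.3725. The Itga3 difference did not pass in 21 of the 27 fits that left out 1 library (adjusted p up to 0.12 by edgeR), nor without the filter on low counts. Those of Asns, Kdr, Pid1, Evx1, Erc2 and Msgn1 did not pass in 14, 11, 9, 9, 5 and 2 of these fits. The genes with a higher change in Ex5 were Cpne1 0.4343, Chchd2 0.4037, Tmsb4x 0.3576, Rab15 0.4511, Gk 0.4331, Hnrnpdl 0.3122 and Cdkn1b 0.345.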

How the results depend on the processing

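No paired analysis was possible because the time-point numbers are not replicate numbers: windows of 1 course share none, and equal numbers in Ex4 and Ex5 were frozen at different minutes. The number of genes that passed in Ex5 (4104) was 3929 by limma-voom, 4288 by DESeq2, 4757 with cosine and sine terms, 3128 with the first window reduced to 6 libraries, and 3366 (without the library at 405 min) to 4687 (without that at 270 min) with 1 library left out. The count for the difference between courses (907) was 1368 with cosine and sine terms, 671 without the filter on low counts, and 625 to 1351 with 1 library left out. The count for slopes within the windows (0) was 1542 without cosine and sine terms and 0 to 40 with 1 library left out. The split of the Ex5 genes into 2003 higher and 2101 lower turned over by DESeq2 (2170 and 2118) and with RLE size factors (2069 and 2058), and the median log2 change over all genes lay between -0.0184 (no filter on low counts) and 0.00297 (a filter at 5 CPM). No tested change of a named gene reversed sign under these alternatives. Of 106 named genes that were tested and passed in Ex5, 104 passed in every fit without 1 library (the exceptions were Ccng1 and Ccne2) and 102 under every other alternative (the exceptions were Slc30a1, Ccng1, Kdr and Fos). Of 39 differences between courses, 32 passed in every fit without 1 library, the exceptions being Erc2, Pid1, Evx1, Msgn1, Asns, Itga3 and Kdr. With 1 library per time, a time and its dish cannot be told apart, and genes under 1 CPM in most libraries were not tested.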
